A study of Mus musculus with 36 samples.

Results

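The genes described here set the entry of pyruvate into the mitochondrial oxidation pathway and the handling of fatty acids and glucose beside it. They are 10 genes taken by name from the count table, namely the pyruvate dehydrogenase kinase genes Pdk1, Pdk2, Pdk3 and Pdk4, the pyruvate dehydrogenase phosphatase genes Pdp1 and Pdp2, and Angptl4, Cpt1a, Hk2 and Ucp2. The table holds 55487 genes, of which 15489 had enough counts to be tested, and all 10 were among these. The question was how Dex (dexamethasone, a synthetic agonist of the glucocorticoid receptor, GR) changed these genes in each GR genotype, read within each sequencing run. The cells were MEFs, primary fibroblasts grown from mouse embryos, exposed to 1 µM Dex or to vehicle for 5 h. Run 1 held GRwt/wt (replicates 1 to 3), GRD/D, GRD+L/D+L and GRko/ko, and run 2 held GRwt/wt (replicates 4 to 6) and GRL/L, each with 3 vehicle and 3 Dex libraries, 36 in all. D is a point mutation in the dimer interface of the DNA-binding domain, L one in the ligand-binding domain, D+L carries both, and GRko/ko lacks functional GR. The labels give FVB/NJ as the strain throughout, while the study's methods describe another strain for the parents of the receptor-deficient embryos. Differences between GRko/ko and GRwt/wt may therefore also hold differences of strain, and the part of strain was not tested. The L and D+L lines were made by genome editing of zygotes and each genotype is compared with cultures of separate embryos, so differences between genotypes also hold differences between embryos.

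Pyruvate dehydrogenase turns pyruvate from glycolysis into acetyl-CoA inside mitochondria. The PDK kinases phosphorylate its E1 alpha subunit and switch it off, and the PDP phosphatases remove the phosphate and switch it on again, so the balance of both decides whether glucose carbon is burned. PDK4 is known as the isoform that rises in fasting, when tissues turn from glucose to fatty acids, and glucocorticoids are known inducers of it. ANGPTL4 is a secreted inhibitor of lipoprotein lipase, CPT1A carries long-chain fatty acids into the mitochondrial import route, HK2 is the inducible hexokinase that traps glucose, and UCP2 is a carrier of the mitochondrial inner membrane.

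Library totals ran from 15280166 to 28662608 counts, and the lowest count of any of the 10 genes in a library was 75 (Pdk4). The receptor transcript Nr3c1 was 67.2 to 74.3 CPM (the count scaled to the size of its library) in vehicle-treated GRwt/wt of run 1 and 15.9 to 17.97 CPM in GRko/ko, 2.08 lower on the log2 scale (adjusted p = 2.44e-23, edgeR). Fibroblast markers (8 genes, summed) were at 30951 to 51163 CPM in every library. Macrophage markers (8 genes, summed) ran from 11.6 to 1267 CPM, lowest in GRD+L/D+L and highest in GRko/ko. Skeletal muscle markers (6 genes) were at 312 to 756 CPM in run 1 and at 4.98 to 11.4 CPM in run 2. This sum was mostly Acta1, with means of 718 and 7.27 CPM in vehicle-treated GRwt/wt of runs 1 and 2. In the same groups Myh3 (0.022 and 1.82 CPM), Tnnt3 (0.17 and 1.16 CPM) and Myog (0.023 and 0.33 CPM) were higher in run 2. Myod1 and Ckm averaged 0.049 CPM or less there, so the sum does not show more muscle cells in run 1. Endothelial (4 genes) and epithelial (4 genes) markers reached at most 17.9 and 23.5 CPM. Cartilage markers (4 genes) were at 178 to 505 CPM in GRko/ko and at 17.04 to 89.2 CPM elsewhere. Adipocyte markers (6 genes) were at 3.63 to 87.7 CPM, with Fabp4 among them. By Xist and 4 Y-linked genes the 12 libraries of GRwt/wt run 1 and GRD/D were female and the other 24 male, so sex, run and genotype cannot be told apart where they coincide. The study describes cultures from different mice, but all libraries of a line were of the same sex. Whether the replicates of a line were separate embryos could not be checked. If they share a culture, the p-values and SDs given below do not cover the spread between embryos.

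The promoters of the kinase genes are shown first because Pdk4 and its 3 paralogs, which share one enzymatic role, differed in their response to Dex. RefSeq windows of 300 bases (250 before to 50 after the annotated start, GRCm38.p6) were held for 8 of the 10 genes, and not for Pdp1 and Angptl4. Each line gives the part of a window that lies before the first exon, 5′ to 3′ on the strand of the gene, for Pdk4 (chr6:5496310-5496528, minus strand), Pdk1 (chr2:71872974-71873223, plus strand), Pdk2 (chr11:95041355-95041621, minus strand) and Pdk3 (chrX:93832202-93832400, minus strand). Capitals mark an E box, CACGTG, which was found in the Pdk2 stretch.
Pdk4: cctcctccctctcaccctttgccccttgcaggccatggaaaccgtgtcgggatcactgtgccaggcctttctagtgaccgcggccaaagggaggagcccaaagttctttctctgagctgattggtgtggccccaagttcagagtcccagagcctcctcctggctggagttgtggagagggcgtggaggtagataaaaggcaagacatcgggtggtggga
Pdk1: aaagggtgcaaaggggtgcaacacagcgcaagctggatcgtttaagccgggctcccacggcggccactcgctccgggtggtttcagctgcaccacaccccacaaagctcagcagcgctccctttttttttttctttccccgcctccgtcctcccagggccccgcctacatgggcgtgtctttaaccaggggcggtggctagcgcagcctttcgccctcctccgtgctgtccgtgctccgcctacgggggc
Pdk2: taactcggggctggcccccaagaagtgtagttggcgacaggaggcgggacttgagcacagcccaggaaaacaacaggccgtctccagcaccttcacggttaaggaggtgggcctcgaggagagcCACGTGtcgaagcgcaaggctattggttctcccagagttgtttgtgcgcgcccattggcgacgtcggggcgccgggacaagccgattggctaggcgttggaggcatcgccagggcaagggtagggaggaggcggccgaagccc
Pdk3: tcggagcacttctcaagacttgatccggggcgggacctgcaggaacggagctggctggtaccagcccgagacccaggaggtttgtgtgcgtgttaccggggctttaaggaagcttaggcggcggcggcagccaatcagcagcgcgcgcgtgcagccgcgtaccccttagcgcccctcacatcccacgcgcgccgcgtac

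Both strands of all windows were searched for the whole glucocorticoid response element (AGAACA and TGTTCT with 3 bases between), for a single arm of it (AGAACA, or TGTTCT on the other strand), for the forkhead motif GTAAACA, for AGGTCA repeated after 1 base, and for CACGTG. Of 32851 windows 0.00913% held the whole element, 19.0% a single arm, 3.65% the forkhead motif, 0.0396% the repeat and 7.15% the E box. The Pdk4 window held none of these letters. A second Pdk1 window, at an internal start, held TGTTCT at 2 positions, Pdk2 held its E box between 126 and 121 bases before the start, and Pdp2 held one between 219 and 214 bases before it. The other windows of these genes held no match.

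Pdk4 (ENSMUSG00000019577, chr6:5483351-5496309, minus strand, GRCm38) rose with Dex wherever the receptor was wild-type or carried L alone, and its level with Dex was close to that with vehicle in GRD/D, GRD+L/D+L and GRko/ko. In GRwt/wt of run 1 the 3 vehicle libraries had 6.10, 5.82 and 4.87 CPM and the 3 Dex libraries 20.2, 20.2 and 19.955 CPM. All Dex libraries lay above all vehicle libraries, and the increase was 3.59-fold (log2 1.85, SE 0.09, adjusted p = 2.72e-18). Adjusted p-values here and in what follows are those of edgeR (quasi-likelihood F test), adjusted by Benjamini-Hochberg over the 15489 genes, and a gene was said to pass at 0.05 or less. The vehicle libraries of GRwt/wt in run 2 had 5.93, 5.47 and 6.02 CPM and the Dex libraries 88.3, 95.8 and 96.7 CPM. The starting level was thus much as in run 1, and the increase was 16.1-fold (log2 4.01, SE 0.07, adjusted p = 1.99e-32). In GRL/L, also of run 2, Pdk4 went from 7.74, 7.72 and 8.38 CPM to 81.5, 86.6 and 87.9 CPM. Each GRL/L library with Dex was below each GRwt/wt library with Dex of the run, and the increase was 10.7-fold (log2 3.42, SE 0.06, adjusted p = 6.46e-31).

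In GRD/D, Pdk4 had 6.36, 5.05 and 6.81 CPM with vehicle and 6.54, 6.42 and 5.16 CPM with Dex. These groups overlapped, with a log2 change of -0.0036 (95% interval -0.22 to 0.21, adjusted p = 0.996). In GRD+L/D+L the vehicle libraries had 18.4, 17.1 and 17.3 CPM and the Dex libraries 18.5, 18.8 and 19.0 CPM. The 3 Dex libraries were the higher ones, but the log2 change of 0.09 (95% interval -0.06 to 0.24) did not pass (adjusted p = 0.692). In GRko/ko the values were 11.5, 11.8 and 12.4 CPM with vehicle and 11.8, 12.8 and 11.7 CPM with Dex, a log2 change of 0.02 (95% interval -0.14 to 0.18).

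**Figure D1:**
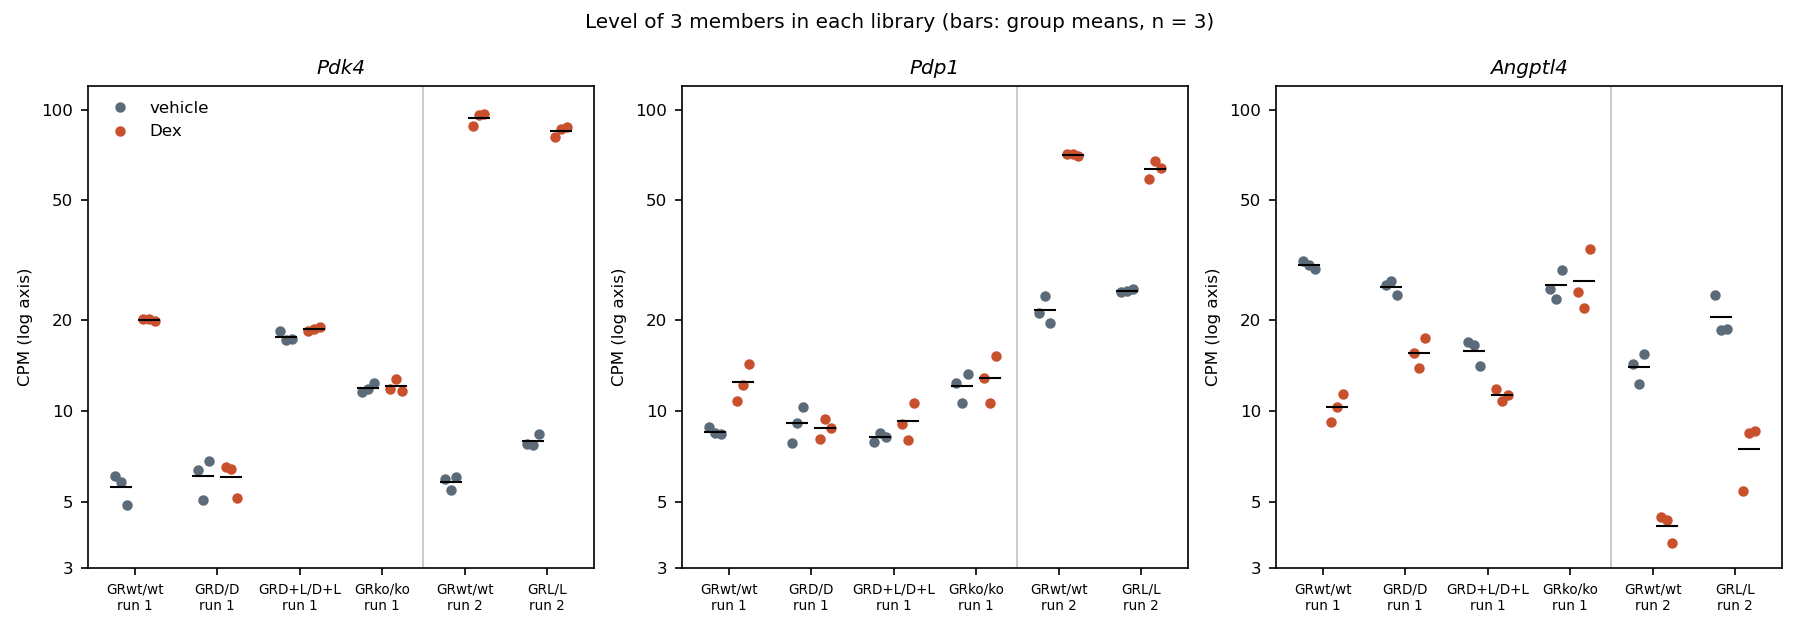
Level of Pdk4, Pdp1 and Angptl4 in CPM on a log axis in each of the 36 libraries, with vehicle in grey and Dex in orange, group means as bars (n = 3) and a vertical line between run 1 and run 2. Pdk4 reaches 19.955 to 20.2 CPM with Dex in GRwt/wt of run 1 and 81.5 to 96.7 CPM in run 2, while Angptl4 falls with Dex in GRwt/wt of both runs.

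The responses themselves were then compared, as the difference of the log2 change in a mutant and in GRwt/wt of its run. For Pdk4 the response was smaller by 1.85 in GRD/D (SE 0.14, adjusted p = 7.46e-12), by 1.75 in GRD+L/D+L (SE 0.12, adjusted p = 2.35e-13) and by 1.83 in GRko/ko (SE 0.12, adjusted p = 8.94e-14). These 3 comparisons share the GRwt/wt libraries of run 1. In GRL/L it was smaller by 0.59 (SE 0.10, adjusted p = 0.000223), from a vehicle level that was higher. An alternative model took 1 response of GRwt/wt for both runs, although for Pdk4 the responses differed by 2.17 (adjusted p = 4.67e-15). Under this model the GRL/L difference was 0.13 and did not pass (adjusted p = 0.944). The 3 differences of run 1 grew to between -3.30 and -3.21. These values also hold the difference between the runs. The response of GRD+L/D+L exceeded that of GRD/D by 0.09 (95% interval -0.16 to 0.35, adjusted p = 0.862).

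Vehicle levels of Pdk4 also differed between genotypes. GRD+L/D+L was 3.14-fold above GRwt/wt of run 1 (log2 1.65, SE 0.09, adjusted p = 1.73e-16), so that its vehicle libraries (17.1 to 18.4 CPM) came near the Dex-treated GRwt/wt libraries of the same run (19.955 to 20.2 CPM). GRko/ko was 2.13-fold above GRwt/wt (log2 1.09, SE 0.10, adjusted p = 6.45e-12). GRD/D did not pass (log2 0.12, SE 0.11, adjusted p = 0.644). GRL/L was 1.37-fold above GRwt/wt of run 2 (log2 0.45, SE 0.08, adjusted p = 0.000183). Under the model that takes the Pdk4 responses of GRwt/wt in both runs as equal, the difference was -0.06 (adjusted p = 0.913). In GRL/L with vehicle all 8 macrophage markers were higher (median log2 1.11) and all 4 tested adipocyte markers lower (median log2 -1.67) than in GRwt/wt of run 2. The libraries of GRD+L/D+L and GRko/ko were male and those of GRwt/wt of run 1 female, and the macrophage marker sum with vehicle was 12.2 to 14.2 CPM in GRD+L/D+L, 1181 to 1266 CPM in GRko/ko and 64.9 to 115 CPM in GRwt/wt of run 1. The part of sex, of these other cells and, for GRko/ko, of a possible difference in strain in the vehicle differences was not tested. In bulk RNA, more cells of one kind and more transcript per cell cannot be told apart.

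The paralogs Pdk1 (ENSMUSG00000006494, chr2:71873224-71903858), Pdk2 (ENSMUSG00000038967, chr11:95026258-95041354) and Pdk3 (ENSMUSG00000035232, chrX:93764607-93832201) passed no test of Dex in any line. Their log2 changes over the 6 lines lay between -0.07 and 0.13 for Pdk1, between -0.07 and 0.18 for Pdk2 and between -0.12 and 0.11 for Pdk3, with smallest adjusted p-values of 0.245, 0.386 and 0.0867. The 95% intervals of all 6 lines lay within -0.25 to 0.28 for Pdk1, -0.29 to 0.42 for Pdk2 and -0.23 to 0.21 for Pdk3, which leaves room for changes far below that of Pdk4. Across all libraries Pdk1 ranged from 16.3 to 26.5 CPM, Pdk2 from 8.57 to 18.9 CPM and Pdk3 from 28.975 to 42.7 CPM. Vehicle levels of Pdk1 and Pdk3 were higher in GRD/D than in GRwt/wt of run 1, by 0.27 (SE 0.08, adjusted p = 0.030) and 0.26 (SE 0.06, adjusted p = 0.00164) on the log2 scale. Pdk3 is X-linked, and both sets of libraries were female. All 8 macrophage markers were also higher in GRD/D in this comparison (median log2 1.52), and their part in the Pdk1 and Pdk3 differences was not tested. Pdk2 was higher in GRL/L than in GRwt/wt of run 2, by 0.28 (SE 0.09, adjusted p = 0.0417), and this call was lost with DESeq2 (adjusted p = 0.0558) and without either of GRL/L vehicle replicates 1 and 2 or GRwt/wt vehicle replicates 4 and 5. The Pdk1 call was lost without GRD/D vehicle replicate 2 or 3 or GRwt/wt vehicle replicate 1 or 3 (adjusted p of 0.0921 to 0.134).

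Scaled by exon length (CPM per kb of merged exons), Pdk3 was the most abundant kinase transcript in vehicle-treated cells of every line. With vehicle it was at 13.5 ± 0.64 (SD, n = 3) CPM per kb, in GRwt/wt of run 1, against 3.12 ± 0.26 for Pdk2, 2.67 ± 0.15 for Pdk1 and 1.59 ± 0.18 for Pdk4. Pdk4 made up 7.62% ± 0.59 (SD, n = 3) of the summed kinase transcripts there and 23.3% ± 0.65 with Dex. Its share in GRwt/wt of run 2 went from 7.09% ± 0.048 to 53.2% ± 1.9, which placed it first among the 4 with 26.7 ± 1.3 CPM per kb. In GRL/L the share went from 8.73% ± 0.59 to 50.3% ± 1.0, whereas in GRD/D it was 7.19% ± 1.1 with vehicle and 7.49% ± 0.79 with Dex. GRD+L/D+L had shares of 21.2% ± 0.85 with vehicle and 22.4% ± 1.1 with Dex, and GRko/ko 14.4% ± 0.76 and 14.7% ± 1.2. The sum of the 4 transcripts in run 2 went from 23.3 ± 1.0 to 50.1 ± 0.75 CPM per kb in GRwt/wt, and in run 1 from 20.9 ± 0.91 to 24.6 ± 0.83. These lengths take all annotated exons, so they do not follow which isoform the cells use.

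**Figure D2:**
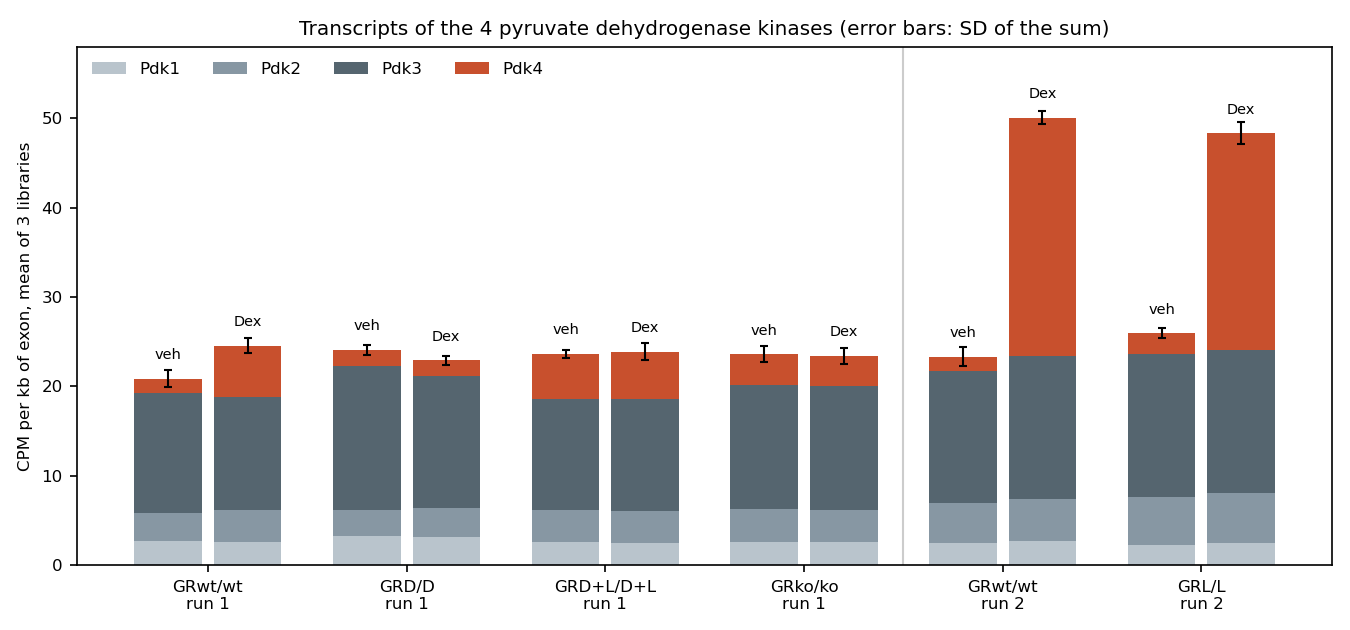
Stacked bars of the mean level of Pdk1, Pdk2, Pdk3 and Pdk4 in CPM per kb of exon for vehicle (veh) and Dex in each line, with the SD of the sum over 3 libraries as error bars. The grey segments of Pdk1, Pdk2 and Pdk3 keep a similar height within a line, and the orange Pdk4 segment grows to 26.7 CPM per kb in GRwt/wt and 24.3 CPM per kb in GRL/L of run 2.

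Of the phosphatases, Pdp1 (ENSMUSG00000049225, chr4:11958184-11966452) rose with Dex in the same lines as its opponent Pdk4. With vehicle it had 8.82, 8.43 and 8.37 CPM in GRwt/wt of run 1, and with Dex 10.8, 12.2 and 14.3 CPM, without overlap (1.45-fold, log2 0.54, SE 0.12, adjusted p = 0.00187). GRwt/wt of run 2 had 21.2, 24.0 and 19.5 CPM with vehicle and 71.4, 71.4 and 70.1 CPM with Dex, a clear separation (3.29-fold, log2 1.72, SE 0.08, adjusted p = 3.08e-19). GRL/L went from 24.8, 25.0 and 25.4 CPM to 59.1, 67.5 and 64.2 CPM (2.53-fold, log2 1.34, SE 0.08, adjusted p = 5.40e-16). In the other lines the vehicle and Dex libraries overlapped, with log2 changes of -0.06 in GRD/D, 0.18 in GRD+L/D+L and 0.10 in GRko/ko, and adjusted p-values of 0.822, 0.650 and 0.969. The difference from GRwt/wt of the run did not pass for GRD/D (-0.60, SE 0.18, adjusted p = 0.0568) for GRD+L/D+L (-0.36, SE 0.18, adjusted p = 0.430), for GRko/ko (-0.44, SE 0.17, adjusted p = 0.106) or for GRL/L (-0.38, SE 0.11, adjusted p = 0.0845). These calls depended on the setting. The GRD/D difference passed with DESeq2 (adjusted p = 0.0230) and without the filter on low counts (adjusted p = 0.0074), the GRL/L difference passed without that filter (adjusted p = 0.0148), and GRko/ko passed without its Dex replicate 3 (-0.57, adjusted p = 0.0299). With 1 response of GRwt/wt for both runs the differences of GRD/D, GRD+L/D+L and GRko/ko were -1.42, -1.18 and -1.26, and all passed (adjusted p of 0.0014 or less). The Pdp1 responses of GRwt/wt differed between the runs by 1.18 (adjusted p = 6.25e-07), so these values also hold the difference between the runs. With vehicle, Pdp1 was higher in GRko/ko than in GRwt/wt of run 1 (10.7 to 13.3 against 8.37 to 8.82 CPM, log2 0.50, SE 0.12, adjusted p = 0.00111).

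Pdp2 (ENSMUSG00000048371, chr8:104591451-104599026), the second phosphatase, passed no test of Dex. Its log2 changes were 0.02 to 0.21 over the 6 lines, all positive, with a smallest adjusted p of 0.0896. The values in GRwt/wt of run 2 were 14.8, 13.4 and 15.9 CPM with vehicle and 16.99, 16.8 and 16.9 CPM with Dex. These 2 groups did not overlap, but the log2 change was only 0.20 (95% interval 0.02 to 0.37). Its vehicle level in GRko/ko was 0.36 lower on the log2 scale than in GRwt/wt of run 1 (SE 0.11, adjusted p = 0.00732), a call lost without GRwt/wt vehicle replicate 3 (-0.23, adjusted p = 0.116).

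Per kb of exon, the summed kinase transcripts exceeded the summed phosphatase transcripts in every library. The ratio in GRwt/wt of run 1 was 4.94 ± 0.58 (SD, n = 3) with vehicle and 4.63 ± 0.69 with Dex, and in GRwt/wt of run 2 it was 3.17 ± 0.26 and 2.68 ± 0.055. In GRL/L it was 3.32 ± 0.089 and 2.90 ± 0.12. The ratio did not rise with Dex in the lines in which Pdk4 rose most, while the phosphatase sum went from 7.37 ± 0.28 to 18.7 ± 0.17 CPM per kb in GRwt/wt of run 2 and from 7.82 ± 0.045 to 16.7 ± 0.84 in GRL/L. Pdp1 made up 64.8% ± 4.3 of that sum with vehicle and 84.1% ± 0.15 with Dex in GRwt/wt of run 2. These are transcript sums, and the activity or amount of the proteins was not measured.

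Angptl4 (ENSMUSG00000002289, chr17:33773750-33781830) fell with Dex in GRwt/wt of both runs, in GRL/L and, to a smaller extent, in GRD/D. In GRwt/wt of run 1 it had 31.5, 30.5 and 29.6 CPM with vehicle and 9.22, 10.3 and 11.4 CPM with Dex (0.337-fold, log2 -1.57, SE 0.15, adjusted p = 1.03e-10). GRwt/wt of run 2 had 14.4, 12.3 and 15.4 CPM with vehicle and 4.44, 4.33 and 3.65 CPM with Dex (0.295-fold, log2 -1.76, SE 0.16, adjusted p = 2.84e-11). The decrease was thus of like size in both runs from starting levels that differed. GRL/L went from 24.3, 18.6 and 18.7 CPM to 5.44, 8.47 and 8.55 CPM (log2 -1.46, SE 0.14, adjusted p = 1.48e-10). GRD/D went from 26.1, 27.0 and 24.3 CPM to 15.5, 13.9 and 17.4 CPM (log2 -0.73, SE 0.14, adjusted p = 0.000274). In all 4 of these lines every Dex library lay below every vehicle library.

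In GRD+L/D+L, Angptl4 had 16.9, 16.5 and 14.1 CPM with vehicle and 11.8, 10.8 and 11.3 CPM with Dex. These groups did not overlap either, but the log2 change of -0.49 (SE 0.16) did not pass with edgeR (adjusted p = 0.0660) and did with DESeq2 (adjusted p = 0.0269). In GRko/ko it had 25.4, 23.6 and 29.3 CPM with vehicle and 24.8, 21.9 and 34.6 CPM with Dex, with overlap (log2 0.06, 95% interval -0.19 to 0.31). Against GRwt/wt of run 1 the decrease was smaller by 0.84 in GRD/D (SE 0.20, adjusted p = 0.0107), by 1.08 in GRD+L/D+L (SE 0.22, adjusted p = 0.00128) and by 1.63 in GRko/ko (SE 0.19, adjusted p = 8.94e-08). The GRD/D difference narrowly lost its call without GRD/D Dex replicate 3 (adjusted p = 0.0549) or GRwt/wt Dex replicate 1 (adjusted p = 0.0515). GRL/L and GRwt/wt of run 2 differed by 0.31 (95% interval -0.12 to 0.73, adjusted p = 0.615). Unlike Pdk4, Angptl4 with vehicle was lower in GRD+L/D+L than in GRwt/wt of run 1 (log2 -0.95, SE 0.14, adjusted p = 1.22e-06), and in GRL/L it was higher than in GRwt/wt of run 2 (log2 0.55, SE 0.13, adjusted p = 0.00255). The latter lost its call without GRL/L vehicle replicate 1 (log2 0.41, adjusted p = 0.0520).

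Cpt1a, Hk2 and Ucp2 moved little with Dex. Cpt1a (ENSMUSG00000024900, chr19:3322334-3385733) had 111, 110 and 113 CPM with vehicle and 121, 122 and 127 CPM with Dex in GRwt/wt of run 1 (log2 0.15, SE 0.05, adjusted p = 0.0494). In run 2 the direction was the opposite, with 84.7, 84.1 and 91.3 CPM with vehicle and 70.0, 82.2 and 82.9 CPM with Dex (log2 -0.14, SE 0.05, adjusted p = 0.0275). The run 1 call was lost in 26 of the 36 fits that left out 1 library and without the filter on low counts (adjusted p = 0.100). The run 2 call was lost without GRwt/wt Dex replicate 4 (log2 -0.07, adjusted p = 0.336) or vehicle replicate 6 (log2 -0.10, adjusted p = 0.169), without the filter on low counts (adjusted p = 0.0677) and with the libraries of the run alone (adjusted p = 0.121). Dex replicate 4 stood apart from replicates 5 and 6, with differences of 6.41 and 7.24 times the sampling noise against 1.62 between those.

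Hk2 (ENSMUSG00000000628, chr6:82725025-82774454) fell in GRD/D from 88.3, 86.7 and 98.1 CPM to 82.1, 82.4 and 75.0 CPM (log2 -0.19, SE 0.06, adjusted p = 0.0354). It fell in GRD+L/D+L from 92.9, 93.0 and 95.7 CPM to 84.4, 77.8 and 81.3 CPM (log2 -0.21, SE 0.06, adjusted p = 0.0352). In GRwt/wt of run 1 the log2 change was -0.15 and did not pass (adjusted p = 0.119), and in run 2 Hk2 rose from 31.7, 33.6 and 34.5 CPM to 36.5, 37.2 and 39.8 CPM (log2 0.19, SE 0.06, adjusted p = 0.0245). These 3 calls were close to the threshold. The GRD/D call was lost without Dex replicate 2 or 3 or vehicle replicate 3 (adjusted p of 0.0569 to 0.194). The GRD+L/D+L call was lost without any of 5 of its libraries (0.0815 to 0.177), and the GRwt/wt call without Dex replicate 6 or vehicle replicate 4 (0.115 and 0.119). Over the 36 fits that left out 1 library the log2 changes kept their sign. They were -0.22 to -0.13 in GRD/D, -0.24 to -0.18 in GRD+L/D+L and 0.15 to 0.21 in GRwt/wt of run 2. Ucp2 (ENSMUSG00000033685, chr7:100493337-100502020) rose in GRD/D from 116, 99.7 and 124 CPM to 130, 134 and 139 CPM (log2 0.24, SE 0.06, adjusted p = 0.0035), a call lost without GRD/D vehicle replicate 2 (log2 0.16, adjusted p = 0.0676), and it passed in no other line. Exons of Ucp2 overlap those of Dnajb13 on the opposite strand, and since the sources used here do not say whether strand was counted, its level is uncertain to that extent.

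**Figure D3:**
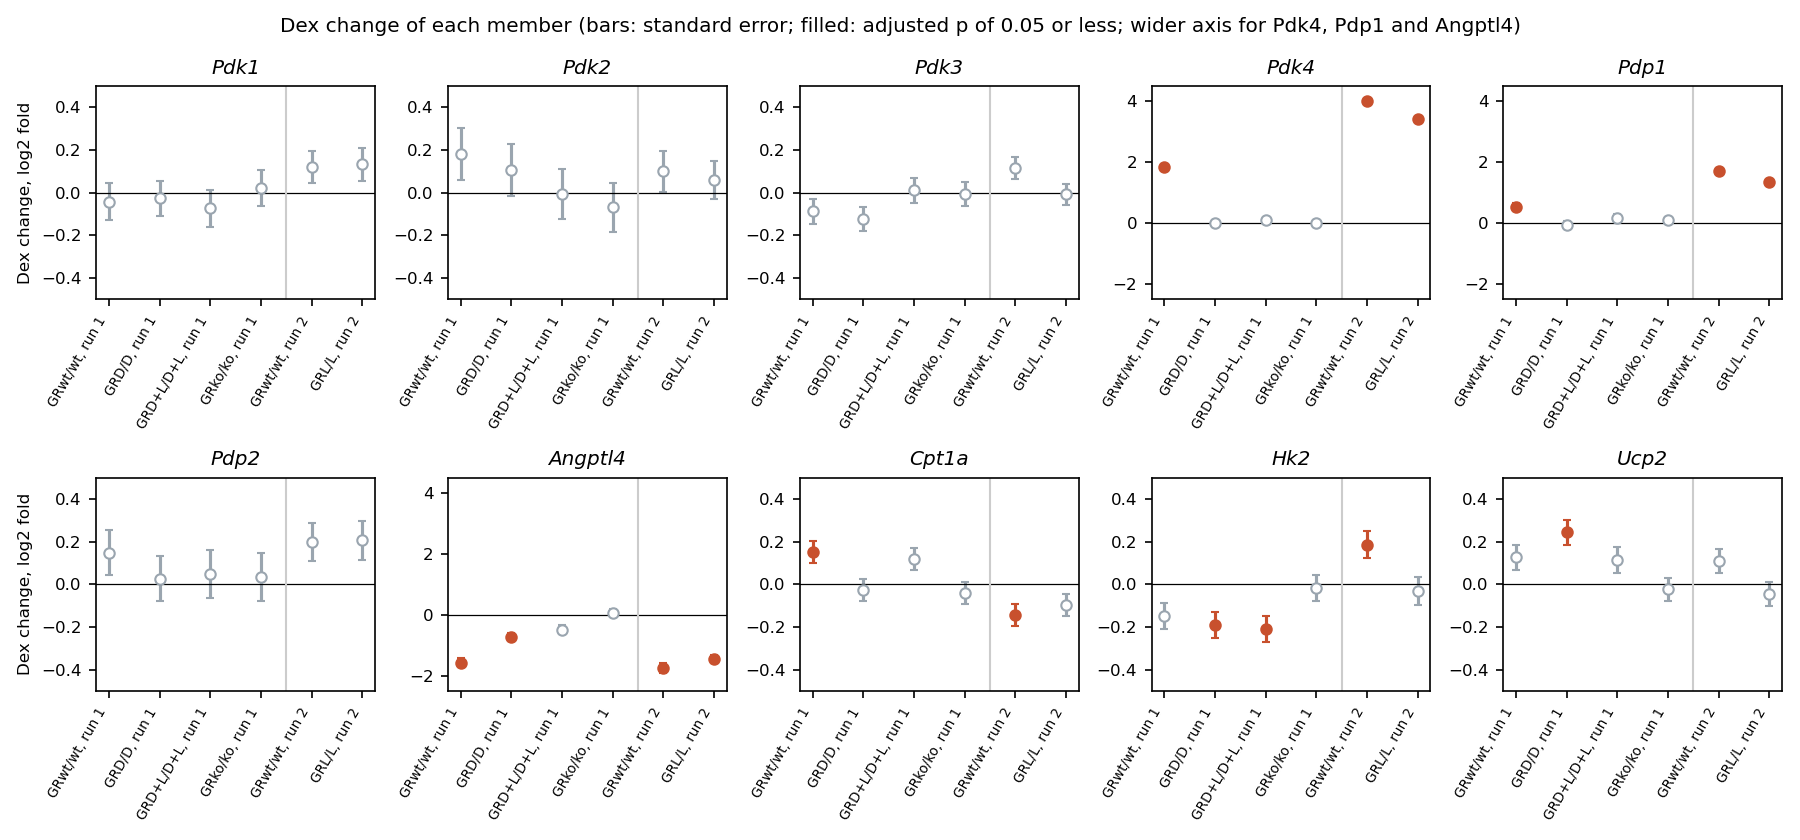
Log2 change with Dex in the 6 lines for each of the 10 genes, with standard errors as bars, filled orange points for adjusted p of 0.05 or less and open grey points for the rest. Pdk4, Pdp1 and Angptl4 have an axis from -2.5 to 4.5 and the other genes one from -0.5 to 0.5.

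Counted over the 10 genes, 4 passed with Dex in GRwt/wt of run 1, where 13.9% of all genes tested did so, and 5 passed in GRwt/wt of run 2, against 31.6% of all genes. The count was 3 in GRL/L (19.1% of all genes), 3 in GRD/D (11.9%) and 1 in GRD+L/D+L (5.00%). It was 0 in GRko/ko, where edgeR called 0% of all genes, none of the 10 had an unadjusted p under 0.05, and DESeq2 called 0 of the 10. The median log2 change over the 10 was 0.14 and 0.12 in GRwt/wt of runs 1 and 2 beside -0.0018 and -0.01 over all genes. Since the 10 genes were chosen with earlier results of these data known, these counts and medians are a description and not evidence of enrichment. The response differed from GRwt/wt of the run for 2 of the 10 genes in GRD/D (3.29% of all genes), 2 in GRD+L/D+L (3.23%), 2 in GRko/ko (8.48%) and 1 in GRL/L (1.85%). Between GRD+L/D+L and GRD/D it differed for 0 of the 10 with edgeR and with DESeq2, and none had an unadjusted p under 0.05 (0.0775% of all genes passed).

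Vehicle levels differed from GRwt/wt of the run for 3 of the 10 genes in GRD/D (9.55% of all genes), for 5 in GRD+L/D+L (29.9%), for 5 in GRko/ko (45.7%) and for 4 in GRL/L (11.3%). Beside those already given, Hk2 was higher with vehicle in GRD/D, GRD+L/D+L and GRko/ko than in GRwt/wt of run 1, by 0.24, 0.29 and 0.30 on the log2 scale (adjusted p = 0.00701, 0.000404 and 8.84e-05). Cpt1a was higher in GRD+L/D+L (132 ± 3.1 against 111 ± 1.3 CPM, SD, n = 3, log2 0.25, adjusted p = 0.000248) and in GRL/L (110 ± 3.9 against 86.7 ± 4.0 CPM, log2 0.35, adjusted p = 5.30e-06). Ucp2 had 75.9, 75.5 and 76.5 CPM in GRD+L/D+L, 109, 110 and 113 CPM in GRwt/wt of run 1, and 224, 213 and 220 CPM in GRko/ko. The 3 groups did not overlap, and the log2 differences from GRwt/wt were -0.54 (SE 0.06, adjusted p = 4.76e-09) in GRD+L/D+L and 0.99 (SE 0.06, adjusted p = 3.86e-17) in GRko/ko. The macrophage marker sum with vehicle was 12.2 to 14.2, 64.9 to 115 and 1181 to 1266 CPM in these 3 groups, in the same order. In GRD/D and GRL/L all 8 macrophage markers were also higher with vehicle than in GRwt/wt of the run (median log2 1.52 and 1.11), but Ucp2 passed in neither, with 116, 99.7 and 124 CPM in GRD/D. The part of macrophages and, in GRko/ko, of strain in the Ucp2 level was not tested.

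**Figure D4:**
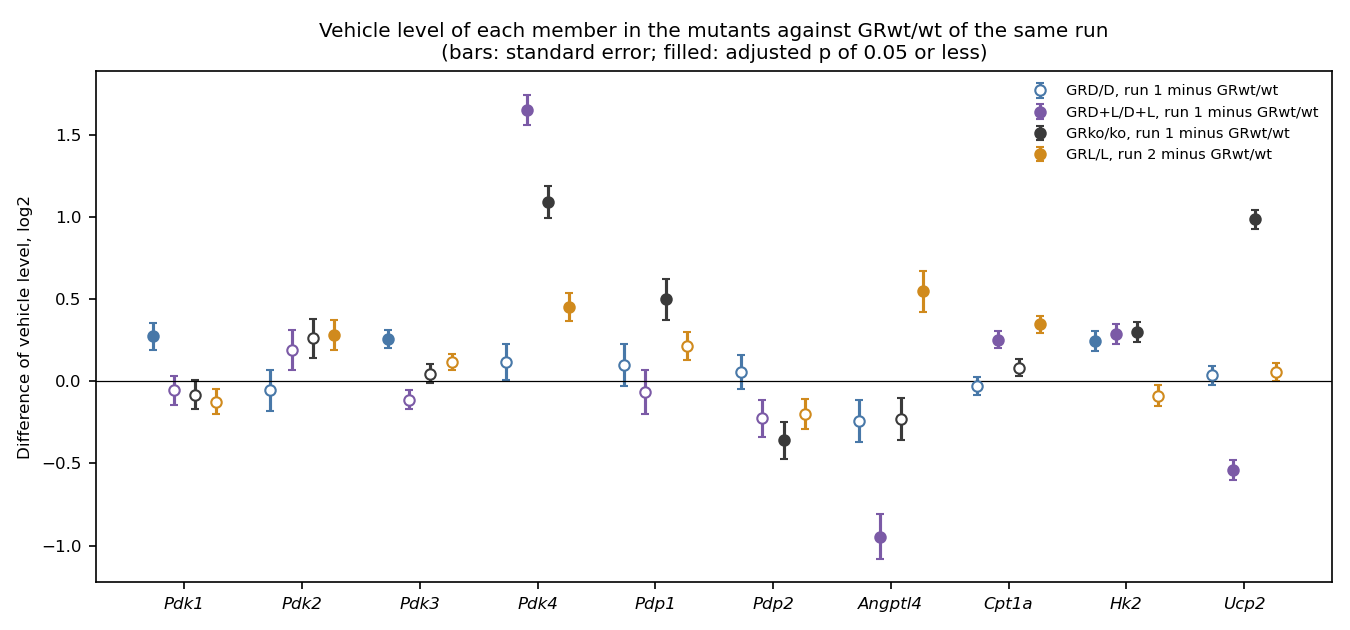
Log2 difference of the vehicle level between each mutant and GRwt/wt of the same run for each of the 10 genes, with standard errors as bars and filled points for adjusted p of 0.05 or less. Pdk4 lies 1.65 above GRwt/wt in GRD+L/D+L and 1.09 above in GRko/ko, and Ucp2 lies 0.99 above in GRko/ko and 0.54 below in GRD+L/D+L.

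The Dex response of GRwt/wt itself differed between the runs for 4 of the 10 genes, where 7.09% of all genes tested did. The increase of Pdk4 was larger in run 2 by 2.17 on the log2 scale (SE 0.12, adjusted p = 4.67e-15) and that of Pdp1 by 1.18 (SE 0.15, adjusted p = 6.25e-07). Hk2 differed by 0.33 (SE 0.09, adjusted p = 0.0149), a call lost without GRwt/wt vehicle replicate 4 of run 2 (adjusted p = 0.0551), and Cpt1a by -0.29 (SE 0.07, adjusted p = 0.00756). The change of Angptl4 did not pass (difference -0.19, 95% interval -0.63 to 0.25, adjusted p = 0.725). GRwt/wt was female in run 1 and male in run 2, and run, sex and culture cannot be told apart here. Adipocyte markers with vehicle were also higher in GRwt/wt of run 2 (Adipoq 0 CPM in run 1 and 8.81 CPM in run 2). The part of such cells was not tested. For Pdk4 and Pdp1, levels with Dex can therefore be read between genotypes only within a run.

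The genes were also ordered by level per kb of exon in vehicle-treated GRwt/wt. In run 1 the order was Ucp2 (15.8 ± 0.26 CPM per kb), Cpt1a (14.6 ± 0.17), Pdk3 (13.5 ± 0.64), Hk2 (12.9 ± 0.66), Angptl4 (8.62 ± 0.28), Pdk2, Pdk1, Pdp2, Pdp1 and Pdk4 (1.59 ± 0.18). Pdk3 and Hk2 lay within their spread of each other, as did Pdk1 and Pdp2, and Pdk4 was last. For run 2 the order was Ucp2 (22.5 ± 1.3), Pdk3 (14.8 ± 0.28), Cpt1a (11.3 ± 0.52), Hk2 (5.58 ± 0.24), Pdp1 (4.79 ± 0.51), Pdk2, Angptl4 (3.96 ± 0.45), Pdp2, Pdk1 and Pdk4 (1.65 ± 0.083). Pdp1, Pdk2 and Angptl4 lay within their spread of the next in this order, as did Pdp2 and Pdk1. With Dex, Pdk4 was first in run 2, ahead of Ucp2 (24.3 ± 0.27) and Pdk3 (16.0 ± 0.54).

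The enzyme that the kinases act on changed less. Of 11 genes of the pyruvate dehydrogenase complex and of pyruvate entry, 1 rose with Dex in GRwt/wt of run 1, 3 rose in run 2, 3 rose in GRL/L, and none fell in any line. Over all genes tested 13.9%, 31.6% and 19.1% passed in these lines, so the counts in GRwt/wt were no larger a share than over all genes, and nothing particular to this list is read from them. None passed in GRD/D, GRD+L/D+L or GRko/ko. The gene that rose in all 3 lines with calls in this list was Pdha1, the E1 alpha subunit that carries the phosphorylation sites. Its log2 changes were 0.19 (SE 0.04, adjusted p = 0.000919), 0.32 (SE 0.04, adjusted p = 5.45e-08) and 0.24 (SE 0.04, adjusted p = 2.15e-05) in GRwt/wt of run 1, of run 2 and in GRL/L. Pcx, which turns pyruvate into oxaloacetate, rose in GRwt/wt of run 2 (0.55, SE 0.08, adjusted p = 3.62e-07) and GRL/L (0.63, SE 0.08, adjusted p = 4.11e-08), with 0.11 in GRwt/wt of run 1 (adjusted p = 0.516). Mpc2, a subunit of the pyruvate carrier, rose in GRwt/wt of run 2 (0.22, adjusted p = 0.0300), and Ldhb, a lactate dehydrogenase subunit, in GRL/L (0.22, adjusted p = 0.0143). Pdhb, Dlat, Dld, Pdhx, Pdpr, Mpc1 and Ldha passed in no line.

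Among 34 tested genes of fatty acid uptake and oxidation, 2 rose and 3 fell in GRwt/wt of run 1, 7 rose and 8 fell in run 2, 5 rose and 4 fell in GRL/L, 1 rose and 2 fell in GRD/D, and 1 rose in GRD+L/D+L. These counts stand beside 13.9%, 31.6%, 19.1%, 11.9% and 5.00% of all genes. The gene that rose in GRD+L/D+L was Fabp4, a lipid carrier of adipocytes and macrophages, with log2 changes of 1.88 and 1.81 in GRwt/wt of runs 1 and 2, 1.58 in GRL/L, 0.86 in GRD/D and 0.50 in GRD+L/D+L (adjusted p = 1.30e-13, 5.95e-20, 7.01e-17, 4.87e-05 and 0.0234). Fabp4 also stands in the adipocyte list, whose sum with Dex was 13.6 to 16.9 CPM in GRwt/wt of run 1 and 71.3 to 87.7 CPM in run 2. Most of that sum was Fabp4 itself, with means of 14.9 and 66.4 CPM. The other adipocyte markers were also higher in run 2 of GRwt/wt with vehicle. Adipoq averaged 0 CPM in run 1 and 8.81 CPM in run 2, Plin1 0.022 and 2.19 CPM, and Cidec 0.022 and 1.86 CPM. Lep (0.022 and 0.21 CPM) and Retn (0 and 0.31 CPM) were low in both runs. Of the 4 tested adipocyte markers 2 rose and 2 fell with Dex in GRwt/wt of run 2. Those that fell were Adipoq (8.81 to 6.25 CPM) and Plin1 (2.19 to 0.45 CPM), and Cidec rose beside Fabp4 (1.86 to 3.34 CPM). Lpl, the lipase that ANGPTL4 inhibits, fell in GRwt/wt of run 2 (-0.72, adjusted p = 1.76e-09) and GRL/L (-0.44, adjusted p = 4.15e-05), with -0.15 in GRwt/wt of run 1 (adjusted p = 0.500). Pnpla2, a triglyceride lipase, rose in the same 2 lines of run 2 (0.70 and 0.41), and the fatty acid transporter gene Slc27a1 fell in 4 lines (-0.55 in GRwt/wt of run 2, -0.41 in GRL/L, -0.23 in GRwt/wt of run 1 and -0.22 in GRD/D).

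Of 25 genes of glucose uptake and glycolysis, 4 rose in GRwt/wt of run 1, 7 rose and 1 fell in run 2, 2 rose in GRL/L, 1 rose and 1 fell in GRD/D, and 3 rose in GRD+L/D+L. Of all genes tested 13.9%, 31.6%, 19.1%, 11.9% and 5.00% passed in these lines, and the counts in GRwt/wt are close to that background. Pfkfb3, which makes the activator of phosphofructokinase, rose by 0.50 in run 1 (SE 0.05, adjusted p = 2.30e-09) and by 0.27 in run 2 (SE 0.05, adjusted p = 0.000116) of GRwt/wt. Txnip, an inhibitor of glucose uptake, rose by 0.19 and 0.33 and the glycolytic gene Pgk1 by 0.16 and 0.28 in the same order. Hk1, the hexokinase of most tissues, rose by 0.23 in GRwt/wt of run 1 and by 0.20 in GRD+L/D+L. No gene of these lists passed in GRko/ko. Of the uncoupling proteins other than Ucp2, Slc25a14 and Slc25a27 were tested and passed in no line (smallest adjusted p in GRwt/wt of 0.280 and 0.879).

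Of 16 genes that encode known regulators of Pdk4 and its partners, 5 rose in GRwt/wt of run 1, 6 rose and 1 fell in run 2, 6 rose and 1 fell in GRL/L, 2 rose and 1 fell in GRD/D, and none passed in GRD+L/D+L or GRko/ko. The shares of all genes were 13.9%, 31.6%, 19.1% and 11.9% in the lines with calls, and 5.00% and 0% in GRD+L/D+L and GRko/ko. Klf15, a glucocorticoid-induced zinc finger factor, rose by 1.70 in GRwt/wt of run 1 (SE 0.20, adjusted p = 2.87e-08), by 2.97 in run 2 (SE 0.11, adjusted p = 7.78e-22) and by 2.35 in GRL/L (SE 0.12, adjusted p = 3.20e-18). Its increase was larger in run 2 than in run 1 of GRwt/wt by 1.27 (adjusted p = 0.000894), as was that of Cebpd, by 1.19 (adjusted p = 4.59e-06), and of Foxo3, by 0.48 (adjusted p = 0.000280). Cebpd rose by 0.46, 1.64 and 1.21 and Foxo3, a forkhead factor, by 0.29, 0.77 and 0.51 in GRwt/wt of run 1, of run 2 and in GRL/L. Foxo1, another forkhead factor, went the other way in run 2. Its mean was 26.4 CPM with vehicle and 19.4 CPM with Dex in GRwt/wt, and 33.9 and 24.9 CPM in GRL/L. In GRwt/wt of run 1 it was 22.1 and 21.9 CPM. Hif1a, the hypoxia factor, rose by 0.40, 0.42 and 0.23 in the same order, with no difference passing between runs (0.03, adjusted p = 0.899).

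Known targets of the receptor give the scale. Tsc22d3 rose by 1.84 in GRwt/wt of run 1, 3.56 in run 2, 2.93 in GRL/L, 0.52 in GRD/D and 0.47 in GRD+L/D+L. Fkbp5 rose by 2.58, 3.70, 3.29, 1.07 and 0.99 in the same order, and Per1 by 1.91, 2.01, 1.82, 1.86 and 1.42, all with adjusted p-values of 5.49e-05 or less. Pdk4 passed in neither GRD/D nor GRD+L/D+L. Its intervals there, -0.22 to 0.21 and -0.06 to 0.24, lie below the values of the 3 targets in the same lines.

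The genes with the most similar pattern over the 6 lines were found as those with the smallest Euclidean distance between their 6 log2 changes with Dex, among the 11780 genes whose mean count was 50 or more. For Pdk4 they were Tsc22d3 (distance 0.928), Aldh1a7 (1.20), Dpep1 (1.496), Fhl5 (1.515) and Myocd (1.55). Of these, Aldh1a7 had log2 changes of 2.03 and 4.78 in GRwt/wt of runs 1 and 2, 4.2004 in GRL/L, -0.20 in GRD/D and -0.13 in GRD+L/D+L. The others, unlike Pdk4, had clearly positive changes in GRD/D and GRD+L/D+L. These were 0.52 and 0.47 for Tsc22d3, 0.87 and 0.55 for Dpep1, 0.53 and 0.55 for Fhl5, and 0.39 and 0.74 for Myocd. For Angptl4 they were Sema7a (0.523), Cx3cl1 (0.559), Itgb3 (0.651), Ptgs2 (0.686) and Pde4b (0.717). Sema7a had log2 changes of -1.18 and -1.92 in GRwt/wt of runs 1 and 2, -1.21 in GRL/L, -0.56 in GRD/D, -0.43 in GRD+L/D+L and 0.09 in GRko/ko. This likeness is a description over 6 values that share one fit and is not a test.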

How the data were processed

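The authors prepared TruSeq libraries from total RNA, sequenced them on a NextSeq 550, aligned the reads to mm10 with HISAT2 2.1.0 (version from the submitters' processing notes), kept reads with a unique position and assigned these to genes with featureCounts 2.0.0. The deposited values are raw counts, 1 column for each of 36 libraries, without normalization. The annotation and the strand setting are not given in the sources used here. Symbols were matched to 55141 of 55487 identifiers.

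Counts were tested with edgeR 4.0.16 (limma 3.58.1, R 4.3.3) in 12 groups of genotype, treatment and run, after TMM scaling and filterByExpr, which left 15489 genes holding 99.931% of counts. An additive model of run and condition, which takes 1 response of GRwt/wt for both runs, served as an alternative. p-values were adjusted by Benjamini-Hochberg over all genes and called at 0.05. SE is the log2 change divided by the square root of F and is approximate. The biological coefficient of variation was 0.0513. CPM use TMM-scaled totals, which lay between 15280166 and 28662608 before scaling. Groups and replicates come from the labels, and the series text says that cultures were from separate mice. All libraries of a line were of the same sex, and whether the replicates of a line were separate embryos could not be checked. If they share a culture, the p-values do not cover the spread between embryos. Libraries of a group differed by 1.41 to 7.24 times the sampling noise, so none were copies. Genes, lists and tests were chosen with earlier results of these data known. Genes outside the 10 were named by rule: all of the pyruvate dehydrogenase list, Nr3c1, Tsc22d3, Fkbp5 and Per1, and up to 4 of each other list by adjusted p in GRwt/wt, with the 5 nearest patterns of Pdk4 and Angptl4. Foxo1 was named in addition, since it moved against Foxo3. Exon lengths and positions are from GENCODE M21, and promoters from RefSeq (GRCm38.p6). On simulated counts over 15495 genes, with 200 changed, the procedure recovered 98% of changes of 1 and 57% of 0.5 on the log2 scale in GRwt/wt of run 1, 100% and 72% in run 2, and 85% and 16% for the difference of GRD/D and GRwt/wt. The simulation gave every gene a dispersion (the square of the biological coefficient of variation) of 0.01. The common dispersion estimated from the data was 0.00263, so these shares need not hold for the data. Alternatives were DESeq2 1.42.0, its size factors, no count filter (32584 genes), a minimum of 10 counts per library (11959 genes), a term for each culture, the additive model, only the libraries of the run, a fold limit of 1 on the log2 scale, and each library left out in turn. Figures were drawn with matplotlib 3.10.9. The 10 nM Dex experiment was not analysed here.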

Additional observations from a re-analysis of the deposited data

Results flagged for a closer look

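These results were singled out because the Dex response of a gene differed between lines by a test of the difference itself, given as log2 differences with edgeR's adjusted p in the report. For Pdk4 the response in GRD/D, GRD+L/D+L and GRko/ko differed from GRwt/wt of run 1 by -1.85, -1.75 and -1.83, and that in GRL/L from GRwt/wt of run 2 by -0.59. For Angptl4, which falls with Dex, the differences were 0.84 in GRD/D, 1.08 in GRD+L/D+L and 1.63 in GRko/ko. Between GRwt/wt of run 2 and of run 1 the response differed by 2.17 for Pdk4, 1.18 for Pdp1, 0.33 for Hk2 and -0.29 for Cpt1a. Groups of 3 libraries were not searched for outlying values.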

How the results depend on the processing

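With an additive model that takes 1 response of GRwt/wt for both runs, 37 pathway genes passed in GRwt/wt in place of 15 in run 1, 0 in place of 1 of the 10 genes passed in GRD+L/D+L, 0 in place of 1 for the response difference of GRL/L, and 5 in place of 3 for the vehicle level of GRD/D. The same model gave Pdk4 in GRL/L a response difference of 0.13 and a vehicle difference of -0.064, and Cpt1a in GRwt/wt a change of 0.00019. The Dex responses of GRwt/wt differed between the runs for Pdk4, Pdp1 and Cpt1a, so for these genes the model mixes unlike responses. In GRD+L/D+L, 2 in place of 1 of the 10 genes passed with DESeq2, without the count filter and with the run's libraries alone, and for the response difference of GRL/L 2 in place of 1 passed without the filter. For Pdk4 in GRD/D the change was 0.0028 with DESeq2, 0.0024 with its size factors and 0.0018 with at least 10 counts in every library.

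A fold limit of 1 on the log2 scale removed the small changes. Of the 10 genes, 2 then passed with Dex in GRwt/wt of run 1 and 3 in run 2, 0 in GRD/D and 0 in GRD+L/D+L. The response difference then passed for 1 gene in GRD/D, 0 in GRL/L and 2 between the runs. Vehicle levels passed for 0 in GRD/D, 0 in GRL/L, 1 in GRD+L/D+L and 1 in GRko/ko. Of the pathway genes 2, 4, 0, 3 and 0 passed in GRwt/wt of run 1, of run 2, GRD/D, GRL/L and GRD+L/D+L, in place of 15, 33, 8, 21 and 4.

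When each library was left out in turn, the count of the 10 genes ranged over 0 to 2 for Dex in GRD+L/D+L, 1 to 3 for the response difference of GRD/D, 1 to 2 for that of GRL/L, 1 to 3 for the vehicle level of GRD/D and 2 to 4 for that of GRL/L. Pathway genes ranged over 4 to 12 in GRD/D and 1 to 5 in GRD+L/D+L. Signs turned in changes near 0 that were not called. Pdk4 with Dex ranged over -0.13 to 0.098 in GRD/D and -0.019 to 0.051 in GRko/ko, Pdp1 over -0.15 to 0.038 in GRD/D and -0.035 to 0.22 in GRko/ko, and Angptl4 over -0.15 to 0.19 in GRko/ko. The Pdk4 difference of GRD+L/D+L from GRD/D ranged over -0.0067 to 0.22. The cause was not tested.

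Replicate numbers were not taken as pairs, since same-numbered vehicle and Dex libraries deviated together (r over 0.1) in 5 of 18 cases, with r of -0.25 to 0.31. All 3 pairs were over 0.1 in GRko/ko (0.18, 0.14 and 0.31) and in no other line. With the replicate block, 2 in place of 1 of the 10 genes passed for the response difference of GRL/L, Pdp1 being added (adjusted p = 0.0444). The block also made Pdp1 pass for the response difference of GRD/D (-0.59, adjusted p = 0.0256) and ended the Cpt1a call in GRwt/wt of run 1 (adjusted p = 0.0580). In simulated counts with a dispersion of 0.01, 57% of log2 changes of 0.5 were found in GRwt/wt of run 1. That dispersion was above the common dispersion of the data (0.00263), so the share for the data is not known, but small changes can be missed.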
